A study of Mus musculus with 4 samples.

Results

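The p53 transcriptional target genes are 35 genes, given by symbol, that the tumor suppressor p53 is known to activate. All 35 were found among the 34866 genes of the deposited table, and their abundance is given in transcripts per 1000000 (TPM) in every library. The cells were B220+ IgM+ splenocytes of 2 λ-MYC Tom+/ki mice that had become ill with an IgM+ lymphoma, here called tumor #1 and tumor #2. Each mouse gave 1 library of Tom- cells and 1 library of Tom+ cells, 4 libraries in all, without further replicates. All libraries shared the same alleles. These were the λ-MYC transgene, a human MYC gene under regulatory sequences of the immunoglobulin λ light chain, one AicdaCre allele, which places Cre under the gene for activation-induced deaminase (AID), and one R26tdTom allele, which Cre switches on for good. Tom+ cells had therefore expressed AID at some time, whereas Tom- cells carried no such mark. Non-transgenic B cells and treated cells were not analysed here, and the ages of the mice are not given in the sources used here.

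p53, encoded by Trp53, is a transcription factor that is kept scarce by Mdm2 and accumulates when DNA is damaged or when an oncogene such as MYC is overactive. It then activates genes that halt the cell cycle, repair DNA, adjust metabolism or kill the cell, and in MYC-driven B cell lymphoma this pathway is a well-known barrier that tumors often lose. The ARF product of Cdkn2a protects p53 by inhibiting Mdm2.

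All 8 B cell markers reached 1 TPM in at least 2 libraries. Their summed level was 2454 TPM (Tom-) and 2295 TPM (Tom+) for tumor #1, compared with 5072 and 5948 TPM for tumor #2. Of 8 T and NK cell markers 1 reached this level, with sums of 1.17 to 8.27 TPM and with Nkg7 and Ncr1 at 0 throughout. Of 8 myeloid markers 1 did (2.64 to 13.3 TPM, C1qa at 0), and of 6 stromal and endothelial markers 1 did (15.1 and 15.2 TPM for tumor #1, 50.4 and 44.4 TPM for tumor #2, Col3a1 at 0). Of 6 erythroid markers 2 did (21.5 and 17.6 TPM for tumor #1, 0.619 and 0.967 TPM for tumor #2, Hba-a1 and Hba-a2 at 0), and of 5 plasma cell markers 3 did, with sums of 13.8 to 20.1 TPM except for 231 TPM in the Tom+ library of tumor #2. Jchain alone made up 209 TPM of that sum and Xbp1 21.2 TPM, whereas Sdc1, Prdm1 and Tnfrsf17 were below 1 TPM in this library. Likewise, Pecam1 alone made up most of the stromal and endothelial sums, with 14.4 and 14.2 TPM for tumor #1 and 49.7 and 43.9 TPM for tumor #2. Col1a1, Col1a2, Cdh5 and Kdr were below 1 TPM in every library. Mitochondrial genes took 6.61% and 8.67% of TPM in tumor #1 and 14.4% and 15.6% in tumor #2, and pseudogenes 31.3% and 30.3% against 25.4% and 23.4%. The part of these differences in the results below was not tested, and in such bulk libraries fewer cells with a transcript and less transcript per cell cannot be told apart. Read numbers cannot be recovered from TPM, so the depth of each library is unknown, and counting error could not be estimated.

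Trp53 itself separated the tumors. It was at 86.2 TPM in Tom- and 99.5 TPM in Tom+ cells of tumor #1, whereas tumor #2 had 0.087 and 0.145 TPM. Cdkn2a showed the reverse, with 0.682 and 1.35 TPM for tumor #1 against 47.0 and 42.2 TPM for tumor #2. Whether p53 protein was present or intact in either tumor cannot be read from these libraries. The target genes were therefore compared along both axes of the design, between the tumors and between Tom+ and Tom- cells.

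The level of the targets ranged widely, and several of the best known ones were hardly expressed in either tumor. Cdkn1a, which encodes the cyclin-dependent kinase inhibitor p21 (chromosome 17, 29090976 to 29100727 of GRCm38, the build of all positions given here), was at 0.568 TPM in Tom- and 0.123 TPM in Tom+ cells of tumor #1, compared with 1.47 and 0.266 TPM for tumor #2. Its Tom- libraries were thus above its Tom+ libraries in both mice, all at a low level, and an exon of another gene overlaps Cdkn1a on the opposite strand. The death receptor gene Eda2r, the desmosomal death gene Perp and the secreted stress factor gene Gdf15 were listed at 0 in all 4 libraries. Phlda3, an inhibitor of Akt, was at 0.983 TPM in Tom- cells of tumor #1 and listed at 0 in the other 3 libraries. Dram1, which acts in autophagy, did not exceed 0.0315 TPM, and the adenylate kinase gene Ak1 did not exceed 0.467 TPM. Plk3, a stress-responsive kinase, was at 0.349 to 1.15 TPM. These 8 genes did not reach 1 TPM in at least 2 libraries and were left out of the comparisons across genes, so that 27 of the 35 were compared among 11339 genes. At the other end, Rps27l, a ribosomal protein of the S27 family, was listed at 752 and 768 TPM for tumor #1, compared with 549 and 488 TPM for tumor #2. It has a close paralog, Rps27, and the way Salmon divided reads between them is not known, so its level is uncertain. The summed level of all 35 targets was 1014 and 1054 TPM for tumor #1 and 991 and 941 TPM for tumor #2, most of it Rps27l. Without Rps27l the order was the other way, and the sum of the other 34 was 262 and 287 TPM for tumor #1 against 442 and 453 TPM for tumor #2. Aen, Btg2, Ddit4, Trp53inp1 and Sesn1, described below, made up most of that difference. The number of targets with at least 1 TPM was nevertheless similar, at 25 and 26 in tumor #1 and 27 in both libraries of tumor #2. Among the 27, the median level was 9.28 and 10.9 TPM for tumor #1, compared with 9.03 and 8.33 TPM for tumor #2. That of all 11339 genes was 10.2 and 10.1 TPM for tumor #1, compared with 13.1 and 12.7 TPM for tumor #2.

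**Figure D1:**
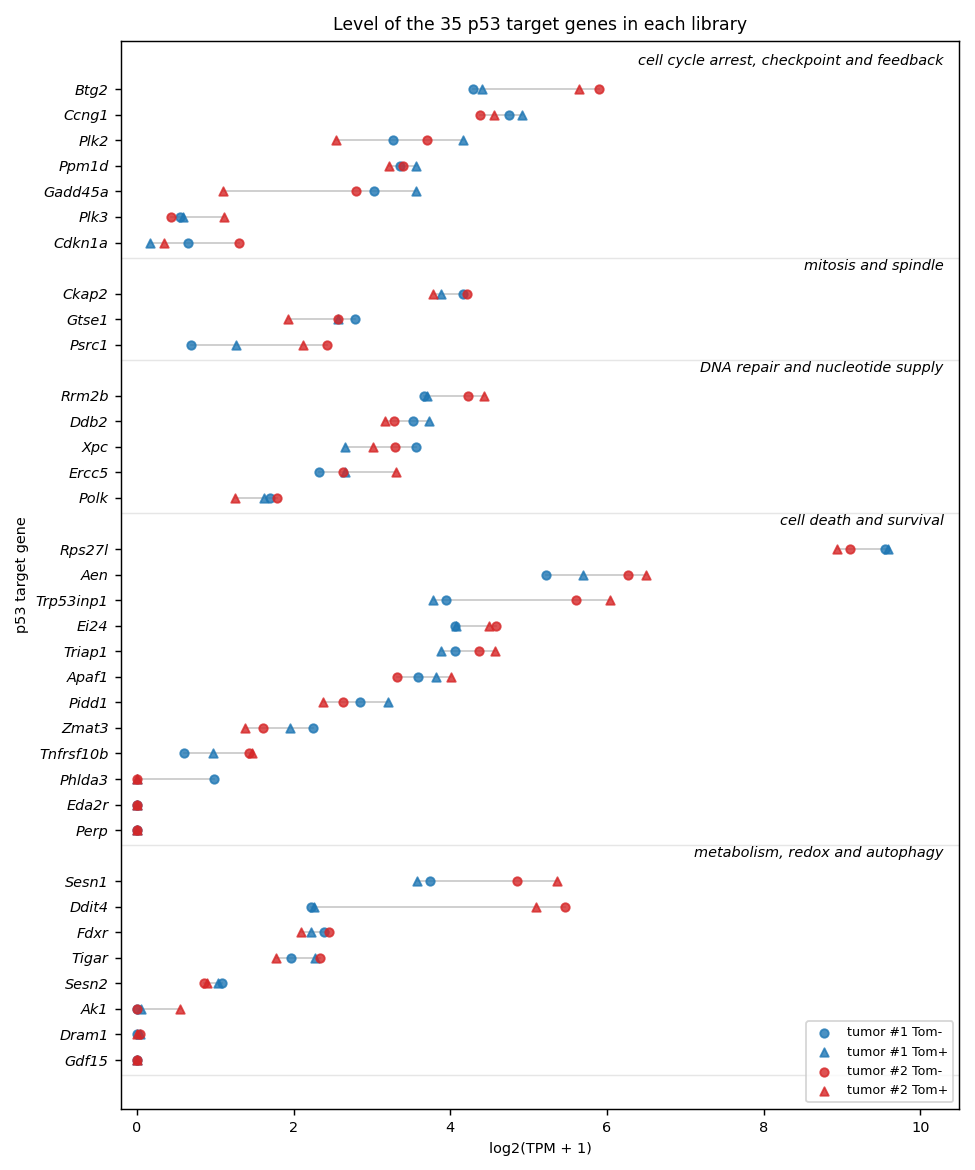
Level of each of the 35 p53 target genes in the 4 libraries, as log2(TPM + 1) on the horizontal axis, grouped by role and ordered by mean level within a role. Blue marks tumor #1 and red tumor #2, circles are Tom- and triangles Tom+ cells, and a grey line joins the lowest and highest library. Eda2r, Perp and Gdf15 lie at 0, and Rps27l is the highest. Of the 27 targets compared, 10 have both red symbols above the blue ones, among them Ddit4, Trp53inp1, Sesn1 and Btg2, and 7 have them below.

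Tumor #2 was compared with tumor #1 separately in Tom- and in Tom+ cells. Each tumor is 1 mouse, and its libraries share that mouse, so there is no replication of tumors and no test was made. A gene was called different where log2(TPM + 1) differed by at least 1, that is 2-fold on the TPM + 1 scale, in the same direction in both Tom- and Tom+ cells. Of the 27 targets, 4 were higher and 0 were lower in tumor #2, the tumor with almost no Trp53 transcript. The 4 were Ddit4, Trp53inp1, Sesn1 and Btg2, or 14.8% of the 27, beside 11.8% of all 11339 genes called higher and 3.1% called lower by the same rule. The median log2 difference of the 27 was 0.084 in Tom- and -0.11 in Tom+ cells, beside 0.23 and 0.19 for all genes. The libraries of the tumors did not overlap for 17 of the 27 targets. Tumor #2 was above tumor #1 in 10 of them (37.0%, beside 44.8% of all genes) and below in 7 (25.9%, beside 23.7% of all genes), shares that lay near those of all genes.

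The cells of tumor #2 had more Ddit4, which encodes REDD1, an inhibitor of mTORC1 (chromosome 10, 59949669 to 59951834). It was at 3.68 TPM in Tom- and 3.78 TPM in Tom+ cells of tumor #1, compared with 43.0 and 33.1 TPM for tumor #2. This was a 9.41-fold difference in Tom- and a 7.13-fold difference in Tom+ cells on the TPM + 1 scale, the largest of the 27 in both. Trp53inp1, a nuclear cofactor that promotes cell death and autophagy (chromosome 4, 11156431 to 11174379), was at 14.5 and 12.7 TPM for tumor #1, compared with 47.8 and 64.9 TPM for tumor #2. Its log2 difference was 1.66 in Tom- and 2.26 in Tom+ cells. Both genes were higher in tumor #2 by at least 3-fold in Tom- and Tom+ cells, and both stayed called under each scaling of the libraries that was tried.

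Sesn1, a sestrin that restrains mTORC1 and counters oxidative stress (chromosome 10, 41809935 to 41908424), was at 12.4 and 10.9 TPM for tumor #1, compared with 27.9 and 40.0 TPM for tumor #2 (log2 difference 1.11 in Tom- and 1.78 in Tom+ cells). Its relative Sesn2 was near 1 TPM throughout, with 1.13 and 1.05 TPM for tumor #1 against 0.809 and 0.855 TPM for tumor #2. Btg2, an antiproliferative gene that recruits mRNA deadenylases (chromosome 1, 134075170 to 134079120), was at 18.5 and 20.1 TPM for tumor #1, compared with 58.7 and 48.9 TPM for tumor #2 (1.61 and 1.24). These 2 calls depended on the scaling. With trimmed-mean scaling the differences in Tom- and Tom+ cells were 0.77 and 1.47 for Sesn1 and 1.26 and 0.92 for Btg2, still higher in tumor #2 but not past 2-fold in both. The median log2 difference of all genes moved from 0.20 to -0.097 and -0.082 with trimmed-mean scaling and quantile normalization. Of all genes called, 79.2% were higher in tumor #2 with TPM as deposited, 58.6% after trimmed-mean scaling and 56.9% after quantile normalization.

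Just outside the limit were Aen, an exonuclease that enhances apoptosis, and Psrc1, a spindle protein. Aen was at 36.2 and 50.6 TPM for tumor #1, compared with 76.1 and 89.2 TPM for tumor #2, with log2 differences of 1.05 and 0.81. Psrc1 was at 0.615 and 1.41 TPM for tumor #1, compared with 4.37 and 3.34 TPM for tumor #2 (1.73 and 0.85), and passed the limit with smaller pseudocounts. Other targets whose libraries were all higher in tumor #2 differed less. Rrm2b, a ribonucleotide reductase subunit, was at 11.7 and 12.1 TPM for tumor #1, compared with 17.7 and 20.5 TPM for tumor #2 (0.56 and 0.72). The others were Ei24, a protein of the endoplasmic reticulum (0.52 and 0.42), Triap1, an inhibitor of apoptosis (0.30 and 0.69), and the death receptor gene Tnfrsf10b (0.83 and 0.50), which passed the filter only through tumor #2.

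**Figure D2:**
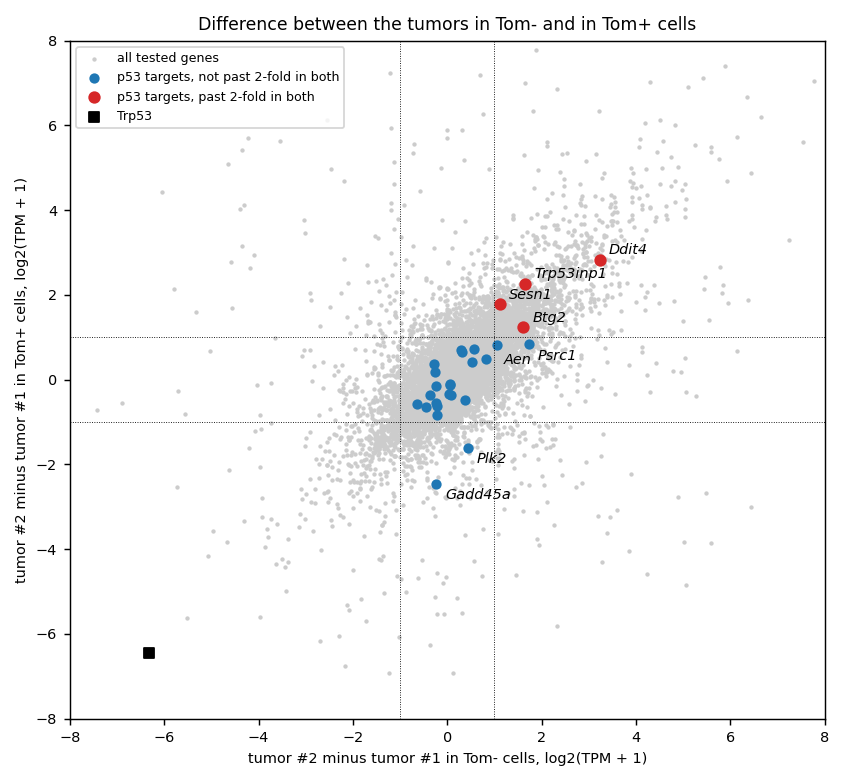
Difference between tumor #2 and tumor #1 in log2(TPM + 1), in Tom- cells on the horizontal axis and in Tom+ cells on the vertical axis, for all tested genes (grey), the 27 p53 targets (blue and red) and Trp53 (black square). Dotted lines mark a 2-fold difference on the TPM + 1 scale, and 14 of the 11339 genes lie beyond the axis limits of 8. The 4 red targets lie above 1 on both axes and no target lies below -1 on both, whereas Trp53 lies below -6 on both.

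Of the 7 targets that were lower in tumor #2 in every library, 6 differed by less than 1 on the log2 scale in both kinds of cells. Ccng1, which encodes cyclin G1, was at 25.8 and 29.2 TPM for tumor #1, compared with 19.8 and 22.5 TPM for tumor #2, a log2 difference of -0.37 in Tom- and -0.36 in Tom+ cells. Zmat3, an RNA-binding regulator of splicing, was at 3.74 and 2.86 TPM for tumor #1, compared with 2.05 and 1.61 TPM for tumor #2 (-0.64 and -0.56). It was the 1 target called lower under any scaling, with -1.12 and -1.02 after quantile normalization. Rps27l (-0.45 and -0.65), Pidd1, the scaffold of the PIDDosome (-0.21 and -0.83), Ddb2, a sensor of ultraviolet damage (-0.24 and -0.56), and Sesn2 (-0.24 and -0.15) also had both libraries of tumor #2 below those of tumor #1. Sesn2 passed the filter only through tumor #1. The seventh was Gadd45a, a stress and repair factor (chromosome 6, 67035096 to 67037457), whose exons overlap a noncoding transcript on the opposite strand. It was at 7.16 and 10.9 TPM in tumor #1, but at 5.94 TPM in Tom- and 1.13 TPM in Tom+ cells of tumor #2, so that its difference of -2.47 in Tom+ cells was not shared by Tom- cells (-0.23). Plk2, a stress-induced polo-like kinase, also had its lowest level in Tom+ cells of tumor #2, at 4.80 TPM, against 12.1 TPM in Tom- cells of that tumor and 8.68 and 16.9 TPM in tumor #1.

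The targets were also counted by role, in groups too small to set against the 11.8% of all genes called higher or their medians of 0.23 (Tom-) and 0.19 (Tom+). Among the targets for metabolism, redox and autophagy, 2 of the 5 compared were called higher, and the other three (Tigar, a fructose bisphosphatase, Sesn2 and the mitochondrial reductase Fdxr) were between -0.49 and 0.37 in both kinds of cells. In cell death and survival, 1 of 9 was called and the median log2 difference was 0.30 in Tom- and 0.42 in Tom+ cells. In cell cycle arrest, checkpoint and feedback, 1 of 5 was called and the median was 0.034 and -0.36. None of the 3 mitotic and 5 repair genes was called. The translesion polymerase gene Polk (0.084 and -0.37) and the damage sensor gene Xpc (-0.28 and 0.36) overlapped between the tumors, as did Ercc5 (0.31 and 0.65). Ppm1d, the phosphatase that ends p53 signaling, was at 9.28 and 10.8 TPM for tumor #1, compared with 9.52 and 8.33 TPM for tumor #2.

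Genes around the 35 targets were counted in the same way, again beside 11.8% of all genes called higher and 3.1% called lower. Of 23 further p53 targets, 21 were matched in the table and 17 passed the filter, and 0 were called in either direction, with a median log2 difference of 0.18 in Tom- and 0.090 in Tom+ cells. Among them, Mdm2, the main inhibitor of p53 and itself a p53 target, was at 21.1 and 19.7 TPM for tumor #1, compared with 20.6 and 21.1 TPM for tumor #2. Of 23 p53 regulators, 21 passed the filter, 4 (19.0%) were higher and 1 (4.76%), Trp53, was lower in tumor #2. Trp53 passed the filter only through tumor #1, and its difference between the tumors was known before the lists were made. Besides Cdkn2a, the higher ones were the acetyltransferase gene Crebbp (11.7 and 15.2 against 29.5 and 44.7 TPM), Pml, the organizer of nuclear bodies (32.9 and 24.6 against 89.1 and 86.6 TPM), and the ubiquitin ligase gene Rchy1 (15.4 and 15.9 against 37.4 and 37.3 TPM). Of 14 genes of the G2 and M phases, 12 (85.7%, beside 23.7% of all genes) had both libraries of tumor #2 below those of tumor #1, and Ccnb1 (79.4 and 71.4 against 25.8 and 19.0 TPM) and Birc5 (67.1 and 67.9 against 29.5 and 20.6 TPM) were called lower. Of the mitotic p53 targets, Ckap2, a microtubule-associated protein, was at 16.8 and 13.8 TPM for tumor #1, compared with 17.5 and 12.7 TPM for tumor #2. Gtse1, which restrains p53 in G2, was at 5.89 and 4.92 TPM for tumor #1, compared with 4.93 and 2.81 TPM for tumor #2.

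p53 binds a response element of 20 bases, made of 2 adjoining copies of a palindromic motif of 10 bases. To see which targets carry one next to their start, the RefSeq promoters of GRCm38.p6, 250 bases before to 50 bases after each start, were searched for the p53 consensus without a spacer and with at most 2 mismatches. Since the consensus is palindromic, both strands are covered. Promoters were given for 28 of the 35 targets. Of the 28, 5 (17.9%) held a match, beside 0.940% of the 27025 genes with a promoter. Counted by promoter, 5 of 39 held one, beside 0.798% of all 32851. The 35 were listed as known p53 targets, so the larger share belongs to the list and says nothing about these cells. The 5 matches are shown because they are the targets with an element closest to the consensus. The matched 20 bases are in capitals after 10 bases of sequence on their 5′ side, all 5′ to 3′ along the gene.
Cdkn1a: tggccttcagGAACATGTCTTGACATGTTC
Ccng1: aatagaggccAGACCTGCCCGGGCAAGCCT
Gtse1: gggaaaccggGAGCAAGTTGGGGCTTGCCT
Rps27l: gaggcatggcGGGCTTGTTGAGACTTGTCC
Ckap2: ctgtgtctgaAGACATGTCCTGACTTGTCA
The matches lie at chr17:29090928-29090947 on the plus strand for Cdkn1a, chr11:40755462-40755481 on the minus strand for Ccng1, chr15:85859945-85859964 on the plus strand for Gtse1, chr9:66946296-66946315 on the plus strand for Rps27l and chr8:22186003-22186022 on the minus strand for Ckap2. Ckap2 had 2 mismatches and each of the others had 1.

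Of the 5 targets with a match, Cdkn1a was too low to compare. None of the other 4 was called between the tumors, too few to set against 11.8% of all genes called higher and 3.1% called lower. The log2 differences given above for Ccng1, Rps27l, Gtse1 (-0.22 and -0.63) and Ckap2 (0.052 and -0.11) lay below the median of all genes in both kinds of cells. So did the median of all 27 targets (0.084 and -0.11, beside 0.23 and 0.19 for all genes). Ppm1d, Pidd1 and Sesn2, whose promoters held no match, also lay below the medians of all genes. The grouping by match was made after the values were seen and was not tested. Of the 4 targets called higher in tumor #2, the best window had 3 mismatches in Sesn1, 4 in Btg2 and 5 in Ddit4, and Trp53inp1 was not among the 28. Aen, Gadd45a, Polk and Tigar also had 3 mismatches at best. In Sesn1 the window with 3 mismatches belongs to a promoter inside the gene, and the promoter nearer its 5′ end had 6 at best. The window of Sesn1 with 3 mismatches lies at chr10:41887266-41887285 on the plus strand and is shown for comparison with the 5 above.
Sesn1: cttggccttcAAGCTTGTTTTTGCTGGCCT
A match says only that these letters are present, and elements further away or with a spacer were not searched.

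Within each mouse, Tom+ cells were then set against Tom- cells, to see whether the targets differed with historical AID expression. With limma's moderated test on log2(TPM + 1) and the tumor as a block, 0 of the 27 targets and 0 of all 11339 genes (0%) had an adjusted p-value below 0.05, and before adjustment 0 of the 27 were below 0.05, beside 4.67% of all genes. In Tom+ cells, 6 targets were higher in both tumors (22.2%, beside 21.6% of all genes) and 6 were lower in both (22.2%, beside 29.5%). The other 15 went in opposite directions, as did 5538 of all 11339 genes. The smallest p-value from limma among the 27 was 0.0976, for Aen, with 0.936 after adjustment. With 2 pairs and 1 residual degree of freedom per gene, these p-values have little power, and they do not show that the cells are alike.

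Ahead in Tom+ cells of both mice were 6 targets, namely Ercc5, Apaf1, Aen, Tnfrsf10b, Ccng1 and Rrm2b. Ercc5, an endonuclease of nucleotide excision repair, went from 4.01 (Tom-) to 5.32 TPM (Tom+) for tumor #1 and from 5.21 to 8.90 TPM for tumor #2 (log2 fold change 0.50 with SE 0.22, limma adjusted p = 0.936). Apaf1, the core of the apoptosome, went from 11.0 to 13.1 TPM and from 9.03 to 15.1 TPM (0.45, SE 0.22, limma adjusted p = 0.936). For Aen the log2 fold change was 0.35 (SE 0.15). Ccng1 had nearly the same small difference in each tumor, 0.17 in both.

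Behind in Tom+ cells of both mice were 6 others, namely Xpc, Gtse1, Ckap2, Polk, Fdxr and Zmat3. Xpc, the DNA damage sensor of global excision repair, went from 10.9 (Tom-) to 5.28 TPM (Tom+) for tumor #1 and from 8.78 to 7.08 TPM for tumor #2. Its log2 fold change of -0.60 (SE 0.26, limma adjusted p = 0.936) came from -0.92 in tumor #1 and -0.27 in tumor #2. Ercc5, which was higher in Tom+ cells, acts in the same repair pathway. Fdxr, the mitochondrial reductase, was at 4.22 (Tom-) and 3.66 TPM (Tom+) for tumor #1 and 4.46 and 3.25 TPM for tumor #2 (-0.26, SE 0.22). Gtse1 (-0.43, SE 0.24) and Ckap2 (-0.35, SE 0.17) were lower by similar amounts. The 14 genes of the G2 and M phases ranged from -0.44 (Bub1) to 0.26 (Cdk1), with a median log2 fold change of -0.072. Cdkn1a, which did not pass the filter, was also lower in Tom+ cells of both tumors. Without the filter it had an unadjusted p-value of 0.0481 and an adjusted p-value of 0.929 from limma. It was the only target below 0.05 before adjustment in any setting tried. Without the filter 32 targets were tested. All genes above 0 TPM in any library then entered, a larger set than the 11339, and 638 of them were below 0.05 before adjustment.

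Ddit4, Trp53inp1, Sesn1 and Btg2, the targets called higher in tumor #2, each went in opposite directions in the tumors. So did 5538 of all 11339 genes. The log2 difference between Tom+ and Tom- cells was 0.033 and -0.37 for Ddit4, -0.17 and 0.43 for Trp53inp1, -0.17 and 0.50 for Sesn1, and 0.11 and -0.26 for Btg2, in tumors #1 and #2. The widest disagreement was that of Gadd45a, from 0.54 in tumor #1 to -1.70 in tumor #2, and of Plk2, from 0.89 to -1.17. In Tom+ cells of tumor #2, where both were lowest, the plasma cell marker Jchain was also high. It was at 209 TPM there, against 0.330 to 1.72 TPM in the other libraries. Xbp1 was at 21.2 TPM, against 10.6 to 18.7 TPM, and Prdm1 at 0.570 TPM, against 0.018 to 0.108 TPM. Sdc1 (0.428 TPM) and Tnfrsf17 (0.390 TPM) were at 0 in Tom- cells of that tumor. Both were higher in Tom- cells of tumor #1 (1.95 and 0.778 TPM). The part of Jchain-expressing cells in the differences of Gadd45a and Plk2 was not tested.

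**Figure D3:**
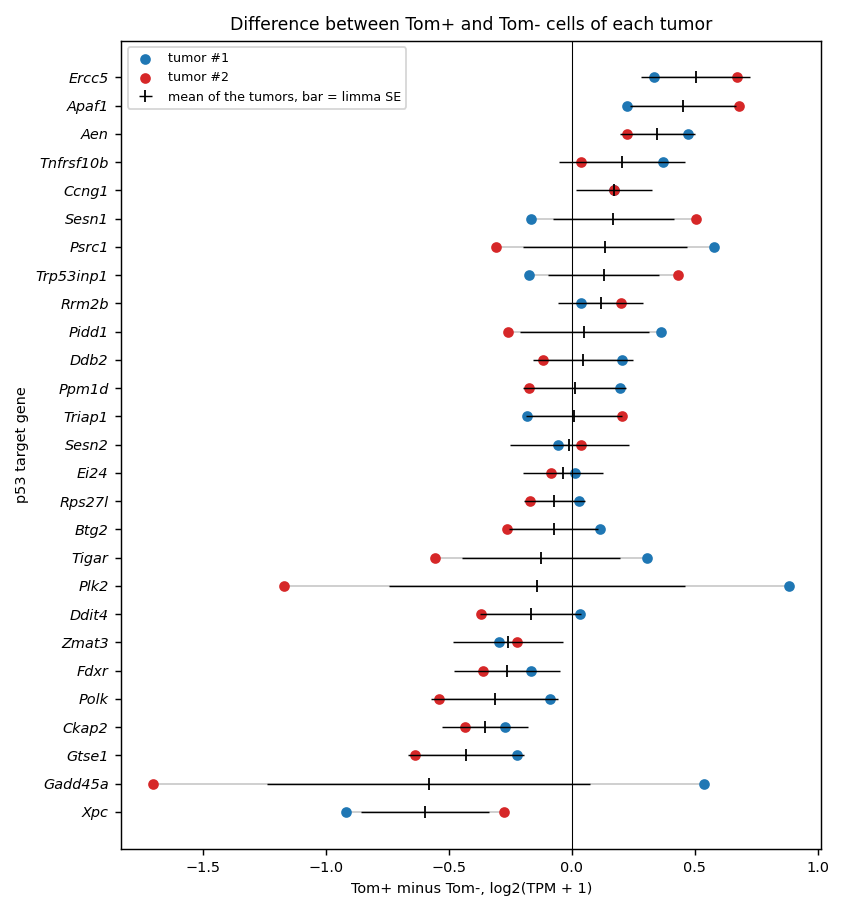
Difference between Tom+ and Tom- cells in log2(TPM + 1) for the 27 p53 targets that passed the filter, ordered by the mean of the tumors. Blue points are tumor #1 and red points tumor #2, joined by a grey line, and the black bar is the mean with limma's standard error. Gadd45a and Plk2 have the longest lines, with tumor #1 above 0 and tumor #2 below, and no mean exceeds 0.60 in size.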

How the data were processed

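Per the labels and the study's methods, RNA of sorted splenocytes was made into libraries with a NEBNext kit and sequenced as single reads of 60 bases. The authors processed reads with CASAVA 1.8 and Cutadapt, discarded reads under 30 bases, quantified them with Salmon 1.9 on the transcriptome of GRCm38, and deposited TPM per gene. How transcripts were summed to genes and whether strand was used are not given in the sources used here. On the opposite strand, exons of Cdkn1a, Plk3, Gadd45a, Ddb2, Rrm2b, Ei24 and Tigar overlap another gene. Each library sums to 1000000 TPM, so depth and its precision are unknown. The authors' edgeR test needs counts and was not run.

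Symbols and positions came from GENCODE M21, which holds 34652 of the 34866 identifiers. Values were analyzed as log2(TPM + 1) for genes with at least 1 TPM in at least 2 libraries. Tom+ and Tom- cells were compared with limma 3.58.1 in R 4.3.3 (two-sided, variance trend, tumor as block, Benjamini-Hochberg over all genes, threshold 0.05), after a test on simulated data. Pairs are defined by the mouse, and same-mouse deviations from the group means correlated across genes (Pearson's r = 0.626, genes not being independent). The tumors, 1 mouse each, were compared without a test. Tables and plots were made with Python 3.11.15.

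The targets, the further lists, the 2-fold rule and the genes to name were chosen with earlier results of these data known. Genes given in full were those called between the tumors, Cdkn1a, those with an unadjusted p-value below 0.05, the highest target of each role and the one with the largest Tom difference, and, from the further lists, Trp53, Mdm2 and those called. Other targets were described after their values were seen, and the promoter search was also added then. Alternatives were pseudocounts of 0.1 and 0.5, no filter, a mean of at least 5 TPM, trimmed-mean scaling, quantile normalization, immunoglobulin genes left out, protein-coding genes only, limits of 1.5-fold and 3-fold, no block, no variance trend, and each tumor or each cell kind left out.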

Additional observations from a re-analysis of the deposited data

Results flagged for a closer look

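Plk2 and Gadd45a stood out because Tom+ cells differed from Tom- cells in opposite directions in the tumors by at least 0.5 on the log2(TPM + 1) scale. For Plk2 the difference was 0.89 in tumor #1 and -1.17 in tumor #2. For Gadd45a it was 0.54 in tumor #1 and -1.70 in tumor #2. With 1 pair of libraries per tumor, the difference between the tumors was not tested. Of all 11339 genes, 500 (4.41%) met the same rule.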

How the results depend on the processing

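Ddit4 and Trp53inp1 were called higher in tumor #2 under every setting tried. The number of targets called higher was 2 with trimmed-mean scaling (beside 8.15% of all genes) and 2 with a 3-fold limit (beside 5.17%). It was between 3 and 6 otherwise, beside 6.85% to 22.6% of all genes. The number called lower was 0 except with quantile normalization and in Tom+ cells alone. It was 1 (Zmat3) with quantile normalization, beside 5.48% of all genes, and 2 (Gadd45a and Plk2) in Tom+ cells alone, beside 7.98%. Leaving out either kind of cells gave 4 to 6 higher, 0 to 2 lower, and a median difference of the targets between -0.11 and 0.084. That median, -0.032 over both kinds of cells, was -0.32 under trimmed-mean scaling and -0.36 under quantile normalization. Sesn1 was not called under these 2 scalings, with protein-coding genes only or with a 3-fold limit, and Btg2 was not called under trimmed-mean scaling or a 3-fold limit. Without immunoglobulin genes the summed TPM of the 35 targets was 1082 (Tom-) and 1118 (Tom+) for tumor #1 (1014 and 1054 with them), and 1047 and 1043 for tumor #2 (991 and 941 with them), because the other genes then share the total.

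Between Tom+ and Tom- cells, 0 targets passed adjustment in any setting. Without the filter 1 of 32 targets, Cdkn1a, had an unadjusted p-value from limma below 0.05. So did 638 of the genes above 0 TPM in any library, a larger set than the 11339. Without the block for the tumor, which the pairing of libraries by mouse calls for, 140 rather than 530 of all genes had an unadjusted p-value below 0.05, and still 0 targets did. The log2 fold change of Rps27l, -0.070, became 0.00084 with quantile normalization. With 1 tumor left out no test could be made, and the values of each tumor are given with the comparison. No depth is known, so genes near 1 TPM, such as Sesn2, Psrc1 and Tnfrsf10b, have the least certain differences.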
